A study of Caenorhabditis elegans with 18 samples.

Results

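The histone his genes of *Caenorhabditis elegans* were read by 51 of the 22625 probe sets of the GeneChip *C. elegans* Genome Array. A probe set was taken as a member where its only gene symbol in the platform annotation was his- followed by a number, which held for 28 probe sets, or where it had several symbols and all of them were his symbols, which held for 23. One further probe set that names a his gene beside other genes was not a member. The 51 probe sets name 72 his genes, of which 26 have a probe set of their own, and all 72 symbols were found in the RefSeq gene table of assembly WBcel235. By class, 2 probe sets read the linker histone H1, 9 read H2A, 9 read H2B, 18 read H3 and 12 read H4, and the class of his-39 is not given here.

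Core histones H2A, H2B, H3 and H4 form the protein spool on which DNA is wound into nucleosomes, and H1 binds the DNA between them. Most worm his genes lie in repeated clusters with a gene for each core histone, are copied into RNA while DNA is replicated, and give mRNA that ends in a stem-loop instead of a poly(A) tail. A few genes outside the clusters encode replacement histones, such as the H3 variants of his-69, his-70, his-71, his-72 and his-74, that are laid down without replication. In an adult worm the dividing cells are those of the germ line and of the embryos it carries, since the cells of the adult body no longer divide.

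Wild type N2 worms, with no other allele given in the labels, were raised from synchronized embryos on *Lactobacillus rhamnosus* CNCM I-3690, on *L. rhamnosus* CNCM I-4317 or on *Escherichia coli* OP50, which is the control diet, and were collected after 10 days or 3 days of feeding. RNA of whole worms was measured on 18 arrays, 3 for each of the 6 groups, which the labels give as separate samples. The methods and the legends of the study differ in the number of replicates per condition, so p-values here rest on the spread between arrays. In the fit of all 18 arrays this spread within groups was pooled over the 6 groups, not taken from the 3 arrays of a group alone. Values are log2 expression of a probe set after background correction with RMA and quantile normalization by the authors. A log2 fold change is the first-named group minus the second, and a probe set was said to rise or fall where its Benjamini-Hochberg adjusted p in limma was under 0.10 over all 22625 probe sets. Whole worms hold all tissues, so fewer cells of a type and less histone RNA per cell cannot be told apart.

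The array medians lay between 1.27 and 1.40, and the correlation between arrays of 1 group, taken over probe sets, was 0.981 to 0.996. The probe set of his-40/his-17 and that of his-73 lay below the median of every array, that of his-69 below it on 17 arrays and that of his-70 on 13, so their differences carry little signal over background. Of the 51 probe sets, 41 carry a suffix letter that marks probes shared between transcripts, and 10 do not. The his copies of a class are nearly identical, so values of single copies are uncertain. The labelling kit starts from poly(A), and how much of the stem-loop histone mRNA it took up was not measured.

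In young worms, collected after 3 days on CNCM I-3690, most histone probe sets were lower than in worms fed with OP50. Of the 51, 11 fell, 2 rose and 38 did not pass the test, where 2.27% of all probe sets fell and 3.85% rose. The median log2 fold change of the 51 was -0.35, against -0.05 for all probe sets, and 43 of the 51 were below 0. In 29 of the 51 (56.9%) all 3 CNCM I-3690 arrays lay below all 3 OP50 arrays, a pattern shown by 13.1% of all probe sets. Averaged over the 51 probe sets of an array, log2 expression was 4.80 ± 0.057 in worms fed with CNCM I-3690 and 5.07 ± 0.087 in worms fed with OP50 (SD, n = 3 each).

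**Figure D1:**
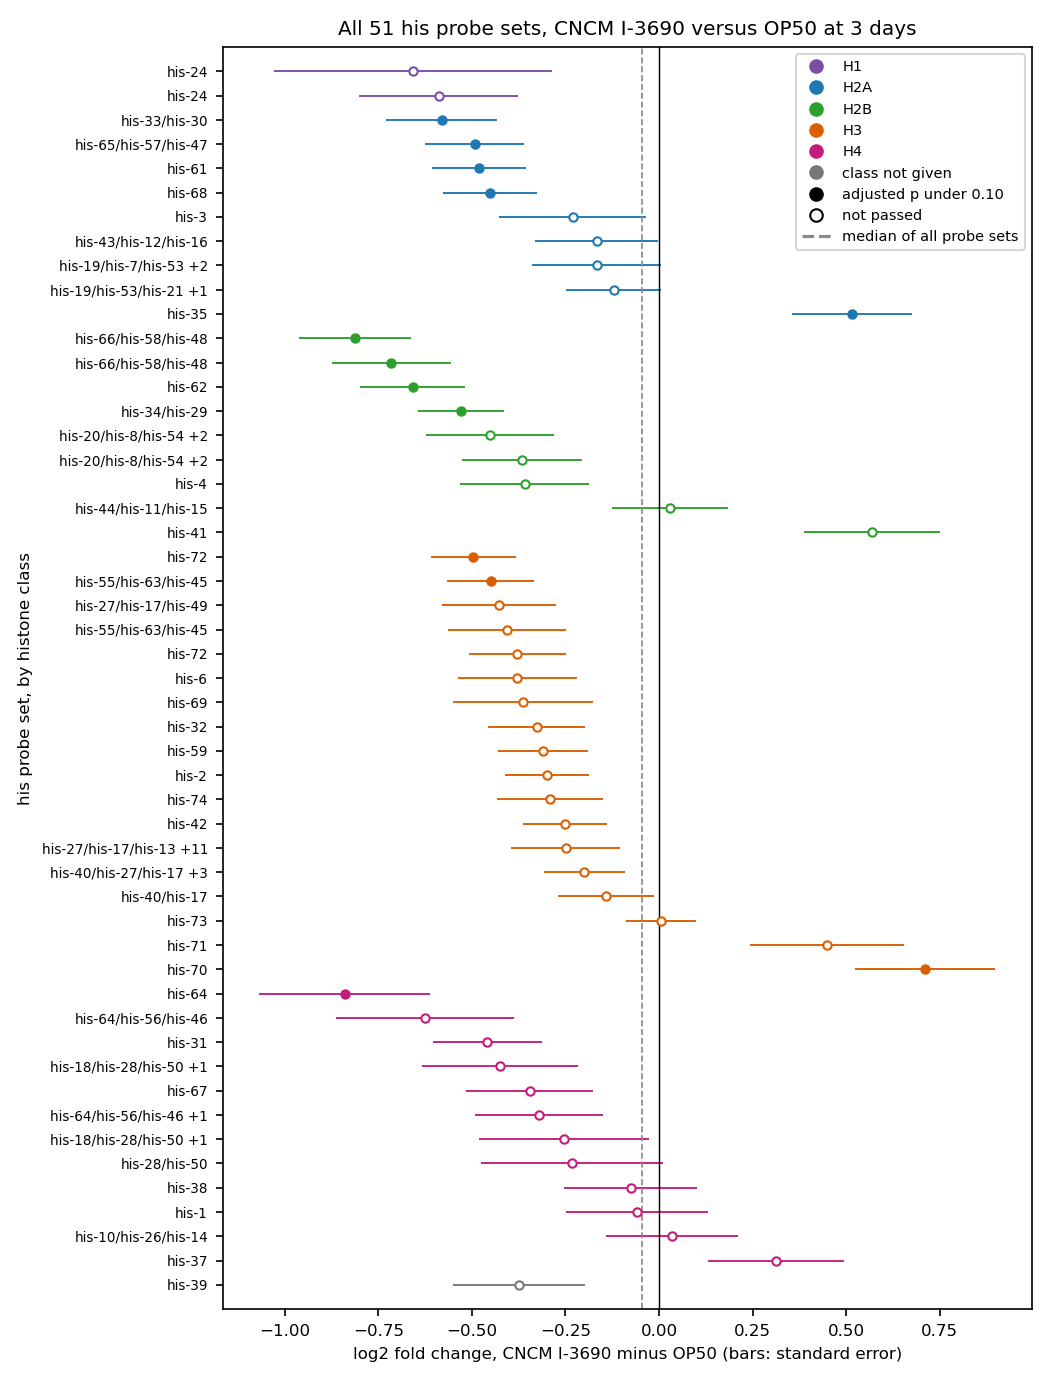
Log2 fold change (x axis, bars show the standard error) of each of the 51 his probe sets, grouped by histone class, on CNCM I-3690 against OP50 after 3 days. Filled points passed the test, the dashed line is the median of all probe sets, and "+2" after a name stands for 2 further symbols. The points of 43 probe sets lie left of 0.

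The falls were found in all 4 core classes. H2B had 4 falls among 9 probe sets and a median of -0.45, H2A had 4 falls and 1 rise among 9 and a median of -0.23, H3 had 2 falls and 1 rise among 18 and a median of -0.31, and H4 had 1 fall among 12 and a median of -0.29. Neither of the 2 H1 probe sets passed the test.

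Of the 11 falls, 5 belong to 3 runs of 4 neighbouring genes, each with 1 gene of H2A, H2B, H3 and H4, which share probe sets. Their H2B genes his-66, his-58 and his-48 are read by a probe set (172758_x_at) that was at 5.93, 6.14 and 6.34 on the CNCM I-3690 arrays, against 6.84, 7.16 and 6.84 on the OP50 arrays. All 3 CNCM I-3690 values lay below all OP50 values, by more than either group varied. The log2 fold change was -0.81 (SE 0.15, adjusted p = 0.00896, limma), and a second probe set of the same genes (172891_x_at) gave -0.72 (SE 0.16, adjusted p = 0.0249). The H2A genes his-65/his-57/his-47 fell by 0.49 on the log2 scale (adjusted p = 0.0549). For the H3 genes his-55/his-63/his-45, 1 probe set (172788_x_at) fell by 0.45 (adjusted p = 0.0459), and the other had -0.41 and did not pass.

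Of the H4 genes of these runs, his-64 has a probe set of its own, which was at 4.65, 5.08 and 5.40 in worms fed with CNCM I-3690 and at 5.60, 6.12 and 5.93 in worms fed with OP50. The groups did not overlap, but the CNCM I-3690 arrays were spread over most of a log2 unit. The log2 fold change of -0.84 (SE 0.23, adjusted p = 0.0562) was the lowest of the 51. The probe set shared with his-56 and his-46 had -0.62 and did not pass.

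Another run of 4 genes holds his-61 and his-62. his-62, an H2B gene, was at 4.50, 4.70 and 4.84 on CNCM I-3690, against 5.23, 5.40 and 5.38 on OP50, a log2 fold change of -0.66 (SE 0.14, adjusted p = 0.0195). his-61, an H2A gene, was at 6.24, 6.06 and 6.30 on CNCM I-3690, against 6.48, 6.91 and 6.66 on OP50, a log2 fold change of -0.48 (SE 0.13, adjusted p = 0.0507). For both genes the CNCM I-3690 arrays lay below the OP50 arrays, and for his-61 the nearest values of the 2 groups were close. In the run of 6 genes from his-29 to his-34, the H2A genes his-33/his-30 fell by 0.58 (adjusted p = 0.0445) and the H2B genes his-34/his-29 by 0.53 (adjusted p = 0.0218), whereas his-31 (H4) had -0.46 and his-32 (H3) -0.33 without passing. his-68, an H2A gene, fell by 0.45 (adjusted p = 0.062).

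In the longest run, of 13 neighbouring genes, no probe set passed the test. The log2 fold changes were -0.17 for the H2A genes his-43/his-12/his-16, 0.03 for the H2B genes his-44/his-11/his-15, 0.03 for the H4 genes his-10/his-26/his-14 and -0.25 for the H3 gene his-42. The 4 genes his-1 to his-4 form a run of their own, with values between -0.36 and -0.06 that did not pass either. The difference between runs was not tested.

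**Figure D2:**
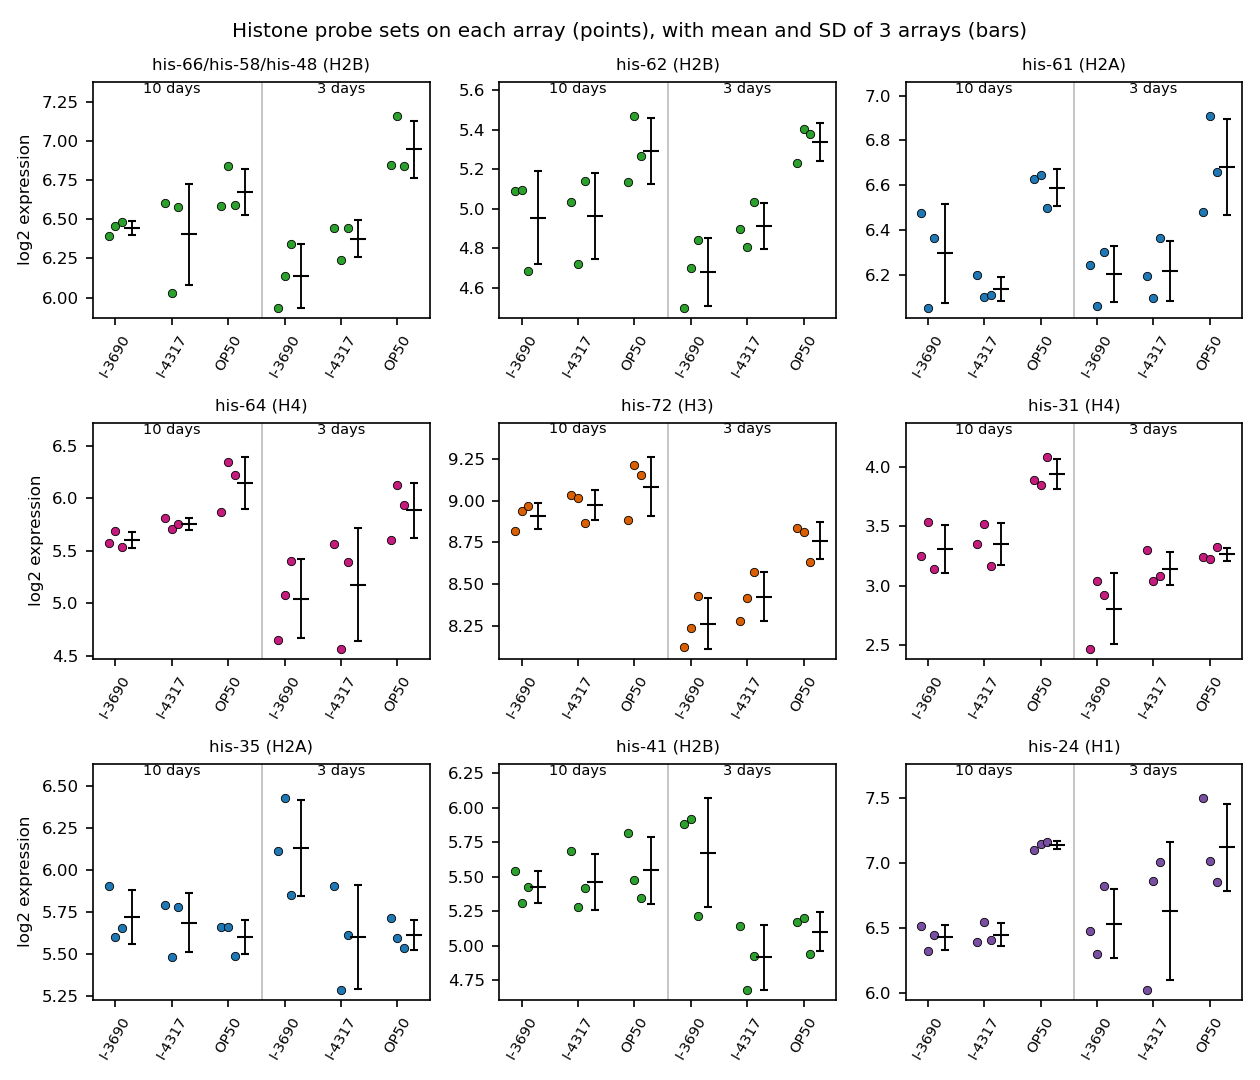
Log2 expression (y axis) of 9 his probe sets on each array, with the worms of 10 days on the left and of 3 days on the right of each panel and the 3 diets along the x axis; bars show the mean and SD of 3 arrays. The panels of his-66/his-58/his-48 (172758_x_at), his-62, his-61 and his-64 show the CNCM I-3690 arrays of 3 days below the OP50 arrays of 3 days, and those of his-35 and his-41 show them above.

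Among the replacement H3 genes, his-72 has 2 probe sets. The first (172863_x_at) was at 8.13, 8.24 and 8.43 after 3 days on CNCM I-3690, against 8.84, 8.81 and 8.63 on OP50, and fell by 0.50 on the log2 scale (SE 0.11, adjusted p = 0.0289). The second (171960_x_at) had -0.38 and did not pass (adjusted p = 0.126). The groups did not overlap in either probe set.

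his-70 went the other way. It was at 1.81, 2.09 and 1.34 on CNCM I-3690 and at 1.16, 0.97 and 0.97 on OP50, a log2 fold change of 0.71 (SE 0.19, adjusted p = 0.05). The groups did not overlap, and these levels are close to the median of the arrays. The other replacement H3 genes did not pass, with his-71 at 0.45 (adjusted p = 0.258), his-74 at -0.29 (adjusted p = 0.289) and his-69, the direct neighbour of his-70, at -0.36 (adjusted p = 0.32). his-73 had 0.01 (adjusted p = 0.986).

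The other rise was in his-35, an H2A gene, at 6.11, 6.42 and 5.85 on CNCM I-3690 and at 5.71, 5.59 and 5.53 on OP50, with a log2 fold change of 0.52 (SE 0.16, adjusted p = 0.0927). The CNCM I-3690 arrays lay above the OP50 arrays and varied more. The H2B gene his-41 lies directly beside it, and the H4 gene his-37 is separated from his-41 by 1 coding gene. These neighbours were singled out after their values were seen. his-41 was at 5.88, 5.92 and 5.22 on CNCM I-3690, against 5.17, 5.20 and 4.94 on OP50, a log2 fold change of 0.57 (SE 0.18) with an adjusted p of 0.103, and its groups lay apart by a narrow margin. It passed under 6 of 16 alternatives, among them cyclic loess (adjusted p = 0.0691) and the fit that left out replicate 3 of the CNCM I-3690 worms (adjusted p = 0.00753). his-37 had 0.31 (adjusted p = 0.386). All 3 genes are read by probe sets with no suffix letter.

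The probe sets with and without a suffix letter gave different counts. Among the 41 with a suffix letter 11 fell and 0 rose, with a median of -0.37, and among the 10 without one 0 fell and 2 rose, with a median of -0.07. The difference between these counts was not tested.

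The number that passed depended on single arrays, while the direction of the median did not. When replicate 1 of CNCM I-3690 was left out 1 probe set fell and 0 rose, without its replicate 2 there were 3 falls and 0 rises, and without its replicate 3 there were 16 falls and 4 rises. The share of all probe sets that fell moved as well and was 0.124%, 0.146% and 6.16% in these 3 fits, with 0.919%, 1.11% and 6.27% rising. Without replicate 2 of OP50 3 fell, where 0.407% of all did, and without replicate 3 of OP50 6 fell, where 0.663% of all did, with 0 rises in both. The median over the 51 stayed between -0.36 and -0.28 in these fits. The probe set 172758_x_at of his-66/his-58/his-48 was the only one that passed without each array in turn, with adjusted p up to 0.0756. After cyclic loess between the arrays 5 fell and 3 rose, with a median of -0.20, where 0.844% of all fell and 4.85% rose. After centring the arrays on their medians 13 fell and 1 rose, where 3.15% of all fell and 3.5% rose.

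After 3 days, worms fed with CNCM I-4317 had 0 histone probe sets that passed against OP50 in limma, where 0.115% of all probe sets did. The unadjusted p was under 0.05 for 16 of the 51 and for 2217 of all 22625 probe sets. The median log2 fold change was -0.24, against -0.01 for all probe sets, and 48 of the 51 were below 0. After cyclic loess it was -0.15, against 0.00 for all. In 16 of the 51 (31.4%) all CNCM I-4317 arrays lay below all OP50 arrays, against 7.2% of all probe sets. his-64 was at 5.57, 4.56 and 5.40 on CNCM I-4317, with -0.71 against OP50 (adjusted p = 0.32), and its groups lay apart by a narrow margin. Without replicate 3 of CNCM I-4317, 1 of the 51 fell, where 0.919% of all did.

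CNCM I-3690 and CNCM I-4317 were compared directly at 3 days. No histone probe set passed in limma, where 0.119% of all did. The unadjusted p was under 0.05 for 7 of the 51 and for 2034 of all 22625 probe sets. The median of the 51 was -0.08, against -0.03 for all probe sets, and it was 0.00 after cyclic loess. The highest values were those of the neighbours his-41 (0.76, SE 0.18, adjusted p = 0.234), his-37 (0.67, SE 0.18, adjusted p = 0.296) and his-35 (0.53, SE 0.16, adjusted p = 0.326). On CNCM I-4317 his-41 was at 5.15, 4.68 and 4.93 and his-35 at 5.90, 5.28 and 5.61, so the CNCM I-4317 arrays lay below the CNCM I-3690 arrays for his-41 and overlapped with them for his-35. Without replicate 3 of CNCM I-3690, 3 probe sets rose, in a fit where 2.44% of all probe sets rose. These were his-41 (adjusted p = 0.00759), his-37 (adjusted p = 0.0438) and his-35 (adjusted p = 0.0542). Under the other 15 alternatives none of the 3 passed, with adjusted p up to 0.909, 0.914 and 0.938.

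After 10 days the histone probe sets were again mostly lower on both *Lactobacillus* diets than on OP50, but few passed. In worms fed with CNCM I-3690, 1 of the 51 fell and 0 rose, where 0.181% of all probe sets fell and 0.358% rose. In worms fed with CNCM I-4317, 3 fell and 0 rose, where 0.349% of all fell and 0.588% rose. The median was -0.24 for either strain, against -0.01 and 0.01 for all probe sets, and 45 and 47 of the 51 were below 0. All arrays of CNCM I-3690 lay below all arrays of OP50 in 17 of the 51 (33.3%, against 6.35% of all probe sets), and those of CNCM I-4317 in 12 (23.5%, against 5.84%). The 2 comparisons share their OP50 arrays, as do the 2 at 3 days.

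**Figure D3:**
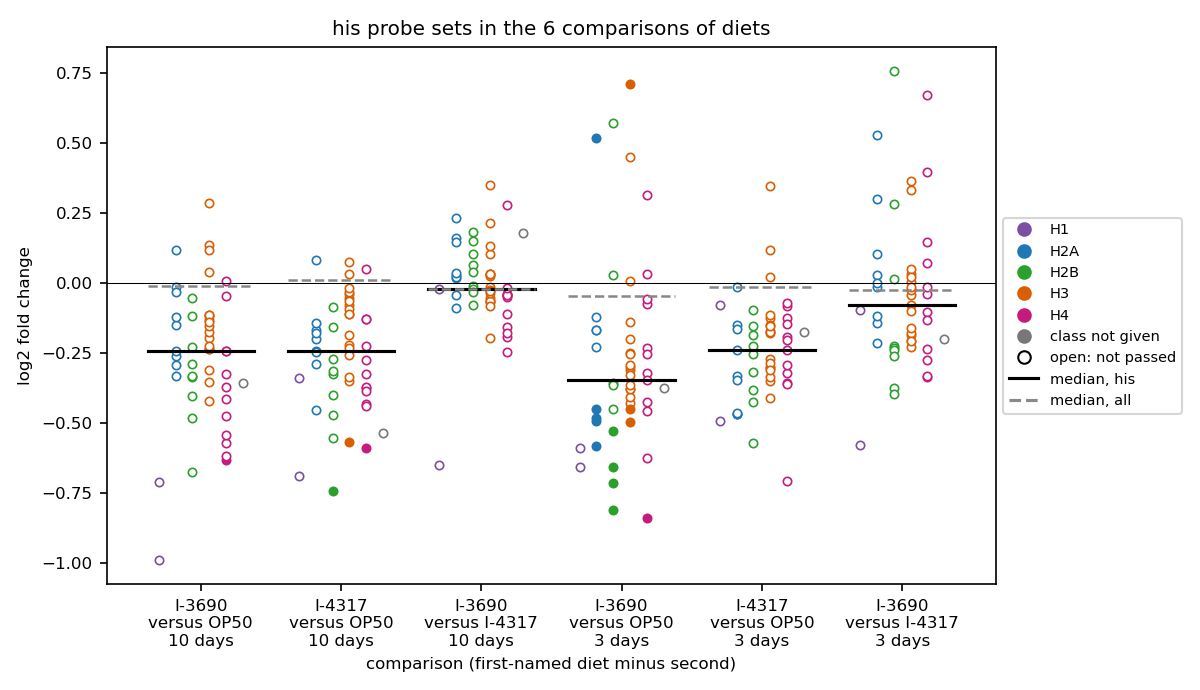
Log2 fold changes (y axis) of the 51 his probe sets in the 6 comparisons of diets (x axis), coloured by class and filled where the test was passed, with the median of the 51 (black) and of all probe sets (grey, dashed). In the 4 comparisons with OP50 the median of the 51 lies between -0.35 and -0.24, and in the 2 between the *Lactobacillus* strains it lies at -0.08 and -0.02.

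his-31, an H4 gene, fell on both strains by a narrow margin. It was at 3.25, 3.54 and 3.14 on CNCM I-3690, at 3.35, 3.52 and 3.17 on CNCM I-4317, against 3.89, 3.85 and 4.08 on OP50. The OP50 arrays lay above all 6 others. The log2 fold change was -0.63 on CNCM I-3690 (SE 0.15, adjusted p = 0.0975) and -0.59 on CNCM I-4317 (SE 0.15, adjusted p = 0.0991). The call was lost under 11 of 15 alternatives on CNCM I-3690 and under 12 of 15 on CNCM I-4317, including 5 of the 6 fits without 1 array for each strain. In those fits the call held only without replicate 2 of the *Lactobacillus* group compared, and the adjusted p reached 0.323 and 0.311 without its replicate 3.

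his-32, the H3 gene directly beside his-31, was at 5.39, 5.36 and 5.36 on CNCM I-4317 and at 5.78, 6.21 and 5.83 on OP50, a log2 fold change of -0.57 (SE 0.13, adjusted p = 0.072). The third probe set to fall on CNCM I-4317 reads the H2B genes his-20/his-8/his-54/his-22/his-52 (172685_x_at), at 4.25, 3.61 and 4.03, against 4.59, 4.84 and 4.69 on OP50 (-0.74, SE 0.17, adjusted p = 0.0753). In both, the CNCM I-4317 arrays lay below the OP50 arrays.

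The H1 gene his-24 did not pass in any comparison on all 18 arrays, although its arrays stood apart at 10 days. Its probe set 175662_at was at 6.52, 6.32 and 6.44 on CNCM I-3690 and at 6.39, 6.55 and 6.40 on CNCM I-4317, against 7.10, 7.14 and 7.16 on OP50. The log2 fold changes were -0.71 (SE 0.21, adjusted p = 0.289) and -0.69 (SE 0.21, adjusted p = 0.213), and both passed when only the 10-day arrays were fitted (adjusted p = 0.0434 and 0.0447). At 3 days the same probe set had -0.59 on CNCM I-3690 (adjusted p = 0.146, and 0.0635 with the third array of that diet left out) and -0.49 on CNCM I-4317 (adjusted p = 0.472), with arrays that overlapped on CNCM I-4317. The second probe set, 190225_s_at, was more variable, with -0.99 on CNCM I-3690 and -0.34 for CNCM I-4317 at 10 days (SE 0.37 each).

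The counts at 10 days depended on single arrays. Without replicate 2 of OP50, 0 probe sets fell on either strain and both medians were -0.15. Without replicate 3 of CNCM I-3690, 0 fell on that strain, without replicate 3 of CNCM I-4317, 0 fell on CNCM I-4317, and without its replicate 2, 1 did. The shares of all probe sets that fell were 0.102%, 0.119% and 0.424% in these fits. Between the *Lactobacillus* strains at 10 days, CNCM I-3690 against CNCM I-4317, 0 of the 51 passed in limma, where 0.0177% of all probe sets did, and the median was -0.02. The unadjusted p was under 0.05 for 0 of the 51 and for 1634 of all 22625 probe sets.

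The histone set was read beside genes for DNA replication and cell division, with 1 probe set per gene. At 3 days on CNCM I-3690 against OP50, 8 of 31 DNA replication genes fell and 0 rose, with a median of -0.32 and all 31 below 0. They included psf-1 (-0.61, adjusted p = 0.036), a subunit of the replicative helicase complex, lig-1 (-0.50, adjusted p = 0.0465), a DNA ligase, and mcm-7 (-0.49, adjusted p = 0.0656), a subunit of the replicative helicase. Of 33 genes for mitosis and the cell cycle 1 fell and 0 rose, with a median of -0.29, and of 13 histone chaperones and histone mRNA processing genes 1 fell, hmg-4, a subunit of the FACT chaperone (-0.39, adjusted p = 0.049), with a median of -0.28. After cyclic loess 1 of the 31 replication genes fell, with a median of -0.15. With that scaling 0 genes of the cell cycle and chaperone lists passed, with medians of -0.15 and -0.13.

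At 10 days these other genes were near 0 against OP50, unlike the histone probe sets. The medians were -0.04 for CNCM I-3690 and 0.03 for CNCM I-4317 for DNA replication, 0.02 and 0.08 for mitosis and the cell cycle, and 0.01 and 0.06 for the chaperones, and 0 genes of the 3 lists passed. At an unadjusted p under 0.05 there were 0 and 2 of the 31 replication genes, 1 and 5 of the 33 cell cycle genes and 0 and 1 of the 13 chaperone genes. Of all 22625 probe sets, 1646 and 2426 had such a p. Among the 10 histone probe sets with no suffix letter the 10-day medians were -0.08 for CNCM I-3690 and -0.11 for CNCM I-4317. Among the 41 with a suffix letter they were -0.26 and -0.27. The difference between the histone median and those of the lists was not tested.

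Markers of the germ line and of some other tissues moved as well. Of 22 germ line genes 3 fell at 3 days on CNCM I-3690 against OP50, with a median of -0.16 that turned to 0.01 after cyclic loess. Of 12 body wall muscle genes 2 rose and 11 were above 0, with a median of 0.49. Of 12 intestine genes 2 rose and 1 fell, with a median of 0.43, and 0 fell after cyclic loess. In the same comparison 4 of 15 embryo genes fell and 0 rose, with a median of -0.16, and 3 fell after cyclic loess. The embryo list has 5 genes below the median of every array. Among 15 neuron genes 0 passed, with a median of 0.04. Of 25 oocyte and eggshell genes 8 fell at 3 days on CNCM I-3690 against OP50, with a median of -0.38. After cyclic loess 2 of the 25 fell, with a median of -0.23. At 10 days 0 of them passed, with medians of 0.07 for CNCM I-3690 and 0.12 for CNCM I-4317. In these 10-day comparisons 0 and 5 genes had an unadjusted p under 0.05, where 1646 and 2426 of all 22625 probe sets did. Of 35 sperm genes 26 rose at 3 days on CNCM I-3690, with a median of 3.71. Their mean log2 expression per array was 6.13 to 7.31 in worms fed with CNCM I-3690, 5.13 to 6.98 in those fed with CNCM I-4317, against 3.33 to 4.47 on OP50, and 3 of the 35 were below the median on every array. At 10 days this mean was 1.54 to 4.11 with CNCM I-3690 and 1.63 to 3.83 with CNCM I-4317, against at most 1.92 on OP50, and 0 sperm genes passed on either strain (15 and 1 at an unadjusted p under 0.05). At 3 days on CNCM I-3690 against OP50, htas-1, a sperm H2A variant that does not carry a his name, had 2.99 (adjusted p = 0.00474). In the same comparison cpar-1, a centromeric H3 variant, had -0.50 (adjusted p = 0.0288). At 10 days 0 of the 4 histone variants outside the his names passed on either strain. Among 8 genes of H1 and H1-like linker histones, hil-7 fell at 3 days on CNCM I-3690 (-1.64, adjusted p = 0.0788). At 10 days 1 of these 8 fell on CNCM I-3690 against OP50 and 0 passed on CNCM I-4317, with medians of -0.46 and -0.21. After cyclic loess 0 of the 8 passed in these comparisons with OP50. The part of these tissues in the histone differences was not tested.

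**Figure D4:**
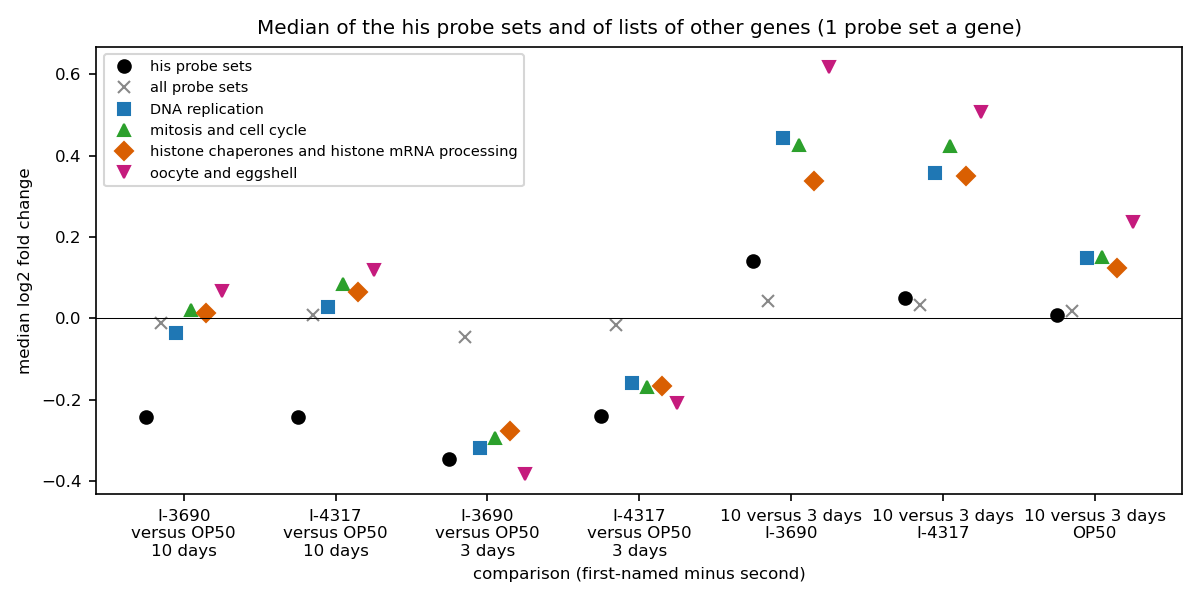
Median log2 fold change (y axis) of the 51 his probe sets, of all probe sets and of 4 lists of genes in the 4 comparisons with OP50 and the 3 comparisons of 10 with 3 days (x axis). At 10 days against OP50 the histone median is -0.24 on both strains, while the medians of the 4 lists lie between -0.04 and 0.12.

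With age the histone probe sets moved in both directions. Between 10 and 3 days, 8 of the 51 rose and 4 fell on CNCM I-3690, where 17.3% of all probe sets rose and 12.6% fell. On CNCM I-4317 6 rose and 2 fell, where 15.4% rose and 10% fell. On OP50 2 rose and 0 fell, where 5.41% rose and 5.37% fell. The shares of the members were near or below those of all probe sets. The medians were 0.14, 0.05 and 0.01 on CNCM I-3690, CNCM I-4317 and OP50, and after cyclic loess they turned to -0.06, -0.14 and -0.07, with 1 rise and 8 falls, 1 and 6, and 1 and 1. Centring the arrays on their medians put the median of all probe sets at 0.13 on CNCM I-3690, against 0.04 as deposited. It gave 16 rises and 2 falls, 7 and 2, and 1 and 0. Of all probe sets 24.4%, 19.3% and 5.21% rose with it, and 10.5%, 8.45% and 5.07% fell. The direction of the family with age therefore depended on the scaling. Cyclic loess kept 5 of the 12 deposited calls on CNCM I-3690, 3 of 8 on CNCM I-4317 and 1 of 2 on OP50. With that scaling 9.9%, 10% and 4.66% of all probe sets rose, and 14.8%, 11.7% and 5.95% fell.

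**Figure D5:**
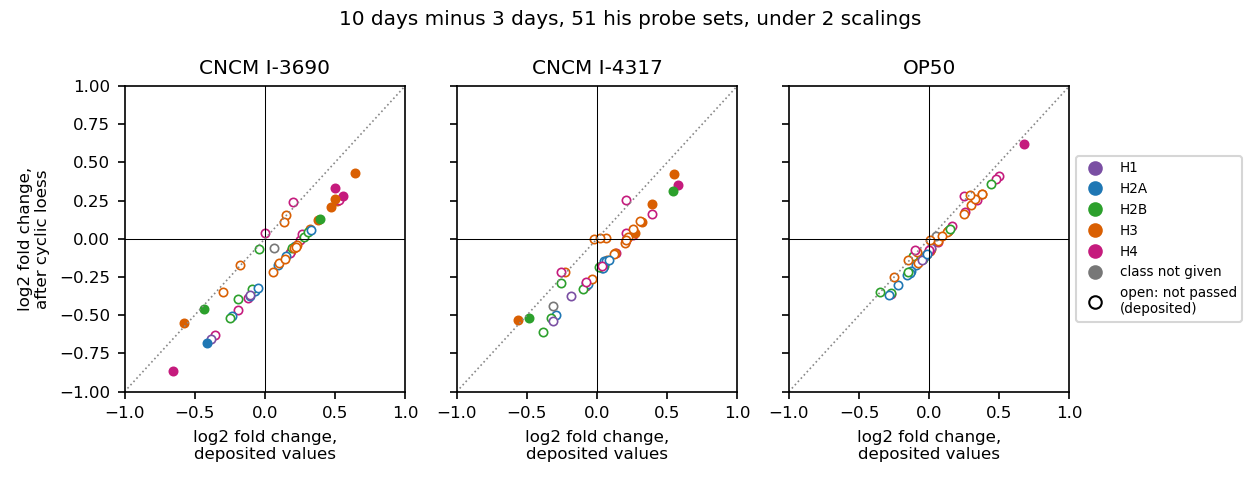
Log2 fold change of 10 against 3 days for the 51 his probe sets on each diet, from the deposited values (x axis) and after cyclic loess between the arrays (y axis), filled where the test was passed on the deposited values. Most points lie below the dotted line of equal values, and 14 probe sets on CNCM I-3690, 18 on CNCM I-4317 and 8 on OP50 changed sign.

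Among the 51, his-72 had the largest rise with age on CNCM I-3690. Its probe set 172863_x_at was at 8.82, 8.94 and 8.97 at 10 days, against 8.13, 8.24 and 8.43 at 3 days, a log2 fold change of 0.65 (SE 0.11, adjusted p = 0.000607). On CNCM I-4317 it was at 9.03, 9.01 and 8.87 at 10 days, against 8.28, 8.42 and 8.58 at 3 days (0.55, SE 0.11, adjusted p = 0.00263). On OP50 the values were 8.88, 9.21 and 9.15 at 10 days and 8.84, 8.81 and 8.63 at 3 days, and the difference of 0.32 did not pass (adjusted p = 0.107). The groups did not overlap on any diet, and on both *Lactobacillus* strains the call held without each array in turn and after cyclic loess. The second his-72 probe set (171960_x_at) rose by 0.52, 0.32 and 0.37 on CNCM I-3690, CNCM I-4317 and OP50 (adjusted p = 0.00758, 0.0979 and 0.0995), and lost all 3 calls after cyclic loess, with 0.25, 0.11 and 0.29 (adjusted p = 0.202, 0.639 and 0.199).

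his-74 rose on CNCM I-3690 by 0.50 (SE 0.14, adjusted p = 0.0158) and on CNCM I-4317 by 0.39 (adjusted p = 0.066), and had 0.09 on OP50 (adjusted p = 0.806). After cyclic loess it had 0.26 and 0.23 on the *Lactobacillus* strains and did not pass (adjusted p = 0.169 and 0.249). In contrast, his-70 fell by 0.58 on CNCM I-3690 (SE 0.19, adjusted p = 0.0322) and by 0.56 on CNCM I-4317 (SE 0.19, adjusted p = 0.043), from levels near the array median. his-64 rose by 0.56 on CNCM I-3690 and by 0.58 with CNCM I-4317 (adjusted p = 0.0917 and 0.0875), and after cyclic loess it had 0.28 and 0.35 without passing (adjusted p = 0.418 and 0.296). The falls of his-70 held after cyclic loess (adjusted p = 0.047 and 0.0645).

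his-31 rose by 0.67 on OP50, with 3.89, 3.85 and 4.08 at 10 days against 3.24, 3.23 and 3.33 at 3 days (SE 0.15, adjusted p = 0.00749), and by 0.50 on CNCM I-3690 (adjusted p = 0.0183, and 0.128 after cyclic loess). On OP50 the values at 10 days lay above those at 3 days, and the call held without each array in turn and after cyclic loess. The other rises on CNCM I-3690 were both probe sets of his-55/his-63/his-45 (0.38 and 0.47) and 1 of his-66/his-58/his-48 (0.39), and on CNCM I-4317 his-41 (0.54) and his-40/his-27/his-17/his-6/his-49/his-2 (0.27). None of these passed after cyclic loess, which gave 0.12, 0.21 and 0.13 for the 3 on CNCM I-3690, with 0.31 and 0.04 for the pair on CNCM I-4317.

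The H4 genes his-10/his-26/his-14 fell by 0.66 on CNCM I-3690, with 3.48, 3.53 and 3.07 at 10 days and 3.99, 4.13 and 3.93 at 3 days (SE 0.18, adjusted p = 0.0115). The remaining falls were his-44/his-11/his-15 (-0.43) and his-35 (-0.41) on CNCM I-3690 and his-4 (-0.49) on CNCM I-4317, and the 4 falls of this paragraph held after cyclic loess. On CNCM I-3690, 4 rose and 2 fell without replicate 1 at 3 days. Without replicate 2 at 3 days 5 rose and 1 fell, and without replicate 3 at 3 days 12 rose and 6 fell. Without replicate 2 at 10 days 4 rose and 3 fell on that diet. Of all probe sets 12.8%, 12.3%, 17.4% and 13.7% rose in these fits, and 10.2%, 10.1%, 12.9% and 10.5% fell. On CNCM I-4317, 3 rose and 1 fell without replicate 1 at 3 days. Without its replicate 2 at 3 days 1 rose and 2 fell. On that diet 4 rose without replicate 2 or 3 at 10 days, with 1 and 0 falls. Of all probe sets 11.4%, 11.6%, 14.1% and 12.9% rose in these fits, and 7.95%, 7.96%, 9.46% and 8.23% fell. Without replicate 1 at 10 days 2 rose and 6 fell on CNCM I-4317, so that the split turned. In that fit 13.1% of all probe sets rose and 8.14% fell. On OP50, 4 rose without replicate 1 at 10 days. On that diet 1 rose without replicate 3 at 10 days or replicate 1 or 3 at 3 days. Without replicate 2 at 10 days 1 rose and 1 fell on OP50, with a median of -0.07. In these OP50 fits 3.36% to 6.36% of all probe sets rose and 3.62% to 5.99% fell.

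DNA replication genes were read with age as well, and their difference from the histone probe sets was not tested. Of 31, 24 rose on CNCM I-3690, 17 on CNCM I-4317 and 2 on OP50, with medians of 0.44, 0.36 and 0.15 and 0 falls. After cyclic loess 9, 10 and 2 rose and 1, 0 and 0 fell, with medians of 0.19, 0.18 and 0.07. Of 33 mitosis and cell cycle genes 21, 18 and 1 rose and 0, 0 and 1 fell. With cyclic loess 10, 10 and 1 of them rose and 0, 1 and 1 fell. Of 13 histone chaperone and mRNA processing genes 9, 5 and 2 rose and 0 fell. With cyclic loess 2, 2 and 1 of them rose and 1, 0 and 0 fell. Of 25 oocyte and eggshell genes, 23, 22 and 6 rose (16, 15 and 5 after cyclic loess), and of 35 sperm genes, 31, 30 and 20 fell. Body wall muscle genes fell with age in 12, 12 and 10 of 12, with medians of -1.89, -1.72 and -1.66, and the part of this shift in the histone values was not tested. The change with age was also compared between diets. None of the 51 histone probe sets passed in the 3 differences in limma, where 0.809% of all probe sets passed for CNCM I-3690 against OP50, 0.23% for CNCM I-4317 against OP50 and 0% between the strains. The unadjusted p was under 0.05 for 5, 2 and 4 of the 51, and for 2974, 2185 and 1228 of all 22625 probe sets. When the third CNCM I-3690 array of 3 days was left out, 1 passed for CNCM I-3690 against OP50 and 1 between the strains, where 4.95% and 0.407% of all did, and without replicate 3 of OP50 at 10 days, 1 passed for CNCM I-3690 against OP50, where 0.875% of all did.

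Over the 9 comparisons of diets and of ages, 24 of the 51 probe sets passed at least once and 27 never did, where 38.4% of all probe sets passed at least once. Those that passed in 3 or more were his-31, his-64, his-70 and both probe sets of his-72. Members of all 4 core classes passed, and the H1 gene his-24, his-39, his-69, his-71 and his-73 did not.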

How the data were processed

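RNA was labelled from its poly(A) end with an array kit. The authors used RMA (version not given in the sources used here) with quantile normalization and deposited log2 expression values of 18 arrays, 3 for each diet and time. No step was added to these values. Probe sets were named with the platform annotation. Neighbouring genes come from RefSeq's WBcel235 table, with at most 2 coding genes between his genes of a run. The build behind the array is not given in the sources used here, so no positions are printed.

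All arrays entered 1 limma 3.58.1 model (R 4.3.3) with a mean for each group and default eBayes (residual degrees of freedom 12, prior 4.09). The threshold of 0.10 follows the range of the study's supplementary tables, whereas its text gives 0.01. The scripts were checked on simulated data. The members and gene lists were chosen with earlier results of these data known. Histone classes were assigned from general knowledge of the genes, since the tables used here do not hold them. Named with values are up to 4 of the strongest rises and falls of a comparison, the genes outside the clusters and the probe sets passing in 3 or more comparisons. Levels of different probe sets were not set against each other. In the lists, each gene was read by its brightest probe set on average. Alternatives were other thresholds, other arrays in the fit, the replicate number as a block, a filter at the percentile of 40, 2 scalings, trended robust eBayes, fewer probe sets and each array left out. The number of arrays limits the precision.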

Additional observations from a re-analysis of the deposited data

How the results depend on the processing

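All 39 passes of a histone probe set in a comparison kept their direction under every alternative tried. Of these, 8 passed without each array in turn and 31 did not. Counts below are probe sets that passed, of 51. The share of all probe sets that passed moved with the setting as well, and is given for the fits without 1 array. For CNCM I-3690 against OP50 at 3 days 13 passed, 8 at a threshold of 0.05, 1 at 0.01, 8 after cyclic loess (7 of them among the 13), and 2 when only probe sets with no suffix letter were counted. Without 1 array 1 to 20 passed, where 1.04% to 12.4% of all probe sets did. For CNCM I-3690 against OP50 at 10 days 1 passed, his-31, and 0 did at 0.05, at 0.01, after median centring, with trended robust eBayes and with no suffix letter. With only the 10-day arrays in the fit his-31 lost its call and his-24 (175662_at) passed instead. Without 1 array 0 to 1 passed, where 0.314% to 0.977% of all probe sets did. For CNCM I-4317 against OP50 at 10 days 3 passed, 0 at 0.05, at 0.01 and with no suffix letter, and 1 after median centring. With only the 10-day arrays in the fit 1 passed, his-24 (175662_at), which was not among the 3. Without 1 array 0 to 2 passed, where 0.345% to 1.32% of all probe sets did. Between 10 and 3 days 12 passed on CNCM I-3690, 2 at 0.01 and with no suffix letter, and 6 to 18 without 1 array, where 22.4% to 30.3% of all did. On CNCM I-4317 8 passed, 3 at 0.05 and with only that diet's arrays, 1 at 0.01, and 2 with no suffix letter. On that diet 3 to 8 passed without 1 array, where 19.4% to 25.8% of all did. On OP50 2 passed, 1 at 0.05, at 0.01, with only that diet's arrays, after median centring and with 1 probe set per gene, and 0 with no suffix letter. On that diet 1 to 4 passed without 1 array, where 7.1% to 12.3% of all did. Without 1 array, 0 to 1 passed for CNCM I-4317 against OP50 at 3 days, 0 to 3 between the strains at 3 days, and 0 to 1 for the differences in age change of CNCM I-3690 from OP50 and from CNCM I-4317. Of all probe sets 0% to 2.28%, 0% to 3.46%, 0.11% to 4.95% and 0% to 0.407% passed in these fits. Causes were not tested, beyond the fewer probe sets counted or arrays used.

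The values do not settle whether the replicate numbers pair the arrays. Deviations from the group means of same-numbered arrays correlated between -0.32 and 0.47 over 45 pairs, with a median of 0.06 and 15 over 0.1. For arrays with different numbers the range was -0.43 to 0.36 over 90 pairs, with a median of -0.03 and 19 over 0.1. With the replicate number as a block, 0 passed for CNCM I-3690 against OP50 at 10 days and 1 for CNCM I-4317 against OP50 at 10 days, and the other counts stayed within 1.5 times.

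Some named values that had not passed changed sign. his-73 on CNCM I-3690 against OP50 at 3 days had -0.04 after median centring (adjusted p = 0.833) and -0.07 to 0.07 without 1 array (adjusted p 0.786 to 0.985). The his-24 probe set 190225_s_at on CNCM I-4317 against OP50 at 3 days had 0.02 after cyclic loess (adjusted p = 0.995) and -0.43 to 0.39 without 1 array (adjusted p 0.701 to 0.970). his-74 with age on OP50 had -0.01 to 0.25 without 1 array (adjusted p 0.324 to 0.983).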
